A study of Mus musculus with 34 samples.

Results

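Mouse kidney progenitor assembloids (mKPA) sampled on day (D) 13 of culture were compared with assembloids sampled on D7, across all genes measured by bulk RNA-seq. The 4 libraries, 2 per day, were those titled D7 and D13 mKPA in the medium called Stage-based media-v2, of 34 libraries in 17 groups of 2 in the whole series, and 19264 of 23331 genes had enough signal to be tested. An assembloid is a kidney tissue put together in culture from kidney progenitor cells that had first been expanded outside the animal. Both days carried the genotype Hoxb7-venus, a reporter driven by a promoter active in the ureteric epithelium. Both were grown in v2. The medium is called stage-based, so its composition may change with the day, and day and medium stage cannot be told apart. The labels do not say whether the D7 and D13 assembloids came from the same batch of progenitors, so batch and day cannot be told apart either. The other culture with libraries on both days, used for comparison, was the kidney explant in Stage-based media-v1, made from E12.5 mouse kidneys and also Hoxb7-venus, with 2 libraries at D7 and 2 at D13. Assembloids at D3 and in 2 sets at D19 (r1 and r2), and wild type kidneys at birth (P0), are given as levels only. The labels do not say whether the libraries of a group came from separate cultures. The p-values therefore measure only the spread between libraries of the same group, taken over all 17 groups, which may be technical.

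The mammalian nephron forms from SIX2-expressing progenitors that surround the branching tips of the ureteric bud, and the bud grows into the collecting duct. Induced progenitors pass through a vesicle stage and become podocytes, the proximal tubule, the loop of Henle and the distal tubule, while FOXD1-expressing stroma gives rise to interstitial, mesangial and mural cells. The proximal tubule takes up phosphate, organic acids, amino acids and peptides and makes glucose, and the collecting duct regulates water through principal cells and acid through intercalated cells.

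Values are the authors' TMM-normalized signal, in which the smallest value of a library is called 1 step. Depth, taken as column total over step, was 16836028 to 21900009 in the 4 assembloid libraries and 17154127 to 20744684 in the 4 explant libraries. The share of signal from mitochondrial genes was 3.98% and 3.69% at D7 and 4.50% and 4.86% at D13. Replicates correlated at 0.9954 at D7 and 0.9936 at D13 across genes on the log2 scale. With a step taken as a read, which the values do not fully bear out, neither pair lay within sampling noise. Xist, transcribed from the inactive X chromosome, was at 2516 and 2501 at D7 and 2129 and 1988 at D13, and the Y-linked Ddx3y at 4.94 and 5.16 at D7 and 6.63 and 5.43 at D13. Both D7 libraries lay above both D13 libraries for Xist and below them for Ddx3y, and the part of this in the results was not tested. At D19, Ddx3y was at 1 step in all 4 libraries (0.0537 to 0.0576), so the D19 assembloids also differ from the earlier ones in a Y-linked gene. The kidney label was checked against defining markers. Six2 was at 159.9 and 166 at D7 and 158 and 161 at D13, and Hoxb7 at 43.7 and 51.4 at D7 and 51.4 and 46.5 at D13. Lrp2 of the proximal tubule was at 37.5 and 28.4 at D13. The defining marker of the distal convoluted tubule, Slc12a3, was near 1 step on both days (0.0441 and 0.15 at D7 and 0.0535 and 0.177 at D13), as was Pecam1 of endothelium (0.0883 and 0.301 at D7 and 0.214 and 0.118 at D13), while Slc12a1 of the loop of Henle was at 0.309 and 0.10 at D7 and 0.535 and 1.59 at D13 and Atp6v1b1 of intercalated cells at 0.265 and 1.0 at D7 and 1.5 and 2.3 at D13.

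Between D7 and D13 14 of 24 proximal tubule genes rose in the assembloids, as did the water channel gene Aqp2, 4 of 10 contractile and mural genes and 4 of 12 genes known to respond to glucocorticoids. Sprr1a and Sprr2f fell, 2 of the 7 stratified barrier epithelium genes tested. Of 9 urothelial genes 2 fell, the uroplakins Upk3a and Upk1b, and 2 rose, Trp63 and Krt20. Calls required an adjusted p under 0.05 in limma (Benjamini-Hochberg) together with a log2 change of 1 or more in either direction. The words rose and fell refer to such calls. Of 19264 genes tested, 515 (2.67%) were called, 353 (1.83%) higher and 162 (0.841%) lower at D13. The median log2 change of all genes tested was 0.01. In bulk RNA, fewer cells of a type and less RNA per cell cannot be told apart. The number called depends on these settings, with 170 genes called at a pseudocount 5 times larger and 2057 with no fold threshold.

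**Figure D1:**
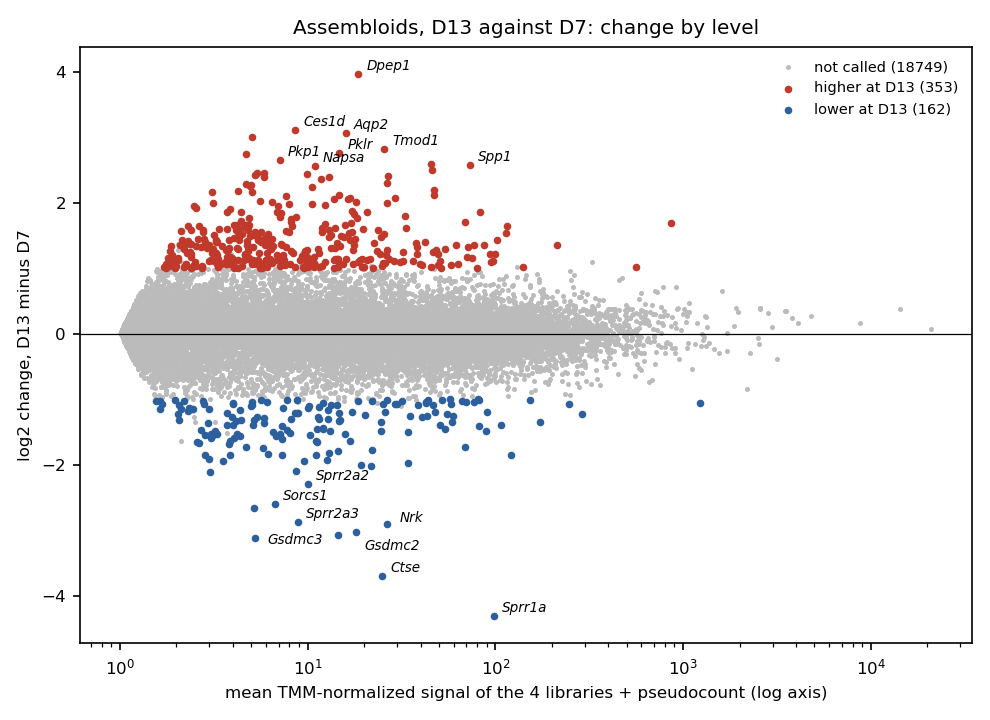
Log2 change from D7 to D13 in assembloids (vertical axis) against the mean TMM-normalized signal of the 4 libraries plus the pseudocount (horizontal log axis), 1 point per gene tested. The 353 genes called higher are red and the 162 called lower are blue, with Dpep1 at 3.97 the top and Sprr1a at -4.31 the bottom point at this pseudocount.

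The largest rise was that of Dpep1, a dipeptidase of the proximal brush border (ENSMUSG00000019278.6, mm39 chromosome 8, 123912981 to 123928551). Its signal was 1.5 and 1.0 at D7 and 28 and 39.9 at D13 (log2 change 3.97 ± 0.22, adjusted p = 1.75e-12), so the groups were far apart. Pklr, a pyruvate kinase of liver, kidney and red cells, was at 3.27 and 2.3 at D7 and 19.6 and 30.0 at D13 (log2 change 2.76 ± 0.27, adjusted p = 2.42e-07). Napsa, an aspartic protease of kidney and lung, was at 2.03 and 2.36 at D7 and 18.5 and 16.9 at D13 (log2 change 2.57 ± 0.18, adjusted p = 3.31e-10). Ces1d, a carboxylesterase that acts on lipids and drugs, was at 0.883 and 0.752 at D7 and 13 and 15.8 at D13 (log2 change 3.11 ± 0.59, adjusted p = 0.00132). It was at 0.558 and 0.547 in P0 kidneys, where Dpep1 was at 28.8 and 31. Aqp2 (ENSMUSG00000023013.6, chromosome 15, 99476936 to 99482428), the vasopressin-regulated water channel of principal cells, was at 2.03 and 2.81 at D7 and 23.3 and 31.8 at D13 (log2 change 3.07 ± 0.27, adjusted p = 1.2e-07). Its D13 level lay between that of D7 and those of the D19 assembloids (123 to 182) and P0 kidneys (327 and 459.6).

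Further rises among the 12 largest came from several groups of genes. Tmod1, which caps actin filaments, was at 3.94 and 6.99 at D7 and 37 and 50.6 at D13 (log2 change 2.82 ± 0.3, adjusted p = 4.12e-07). Pkp1, a desmosomal plaque protein, was at 0.662 and 1.35 at D7 and 12 and 10.5 at D13 (log2 change 2.65 ± 0.24, adjusted p = 1.56e-08). Both had less signal in every D19 library than in either D13 library, at 9.8 to 18.8 and 2.53 to 5.41. Myh11, the smooth muscle myosin heavy chain, was at 8.39 and 6.67 at D7 and 37.7 and 50.7 at D13 (log2 change 2.4 ± 0.3, adjusted p = 2.67e-05). Klf9 (chromosome 19, 23118590 to 23145498), a transcription factor induced by glucocorticoids, was at 13.6 and 12 at D7 and 70.0 and 84.9 at D13 (log2 change 2.51 ± 0.14, adjusted p = 3.72e-12). At D19 it was at 79.4 to 102. Spp1, which encodes osteopontin, was at 18.8 and 19.5 at D7 and 84.9 and 166 at D13 (log2 change 2.57 ± 0.49, adjusted p = 0.00207). Its D13 libraries differed, and its change, no longer called, was 2.09 without assembloid D13 replicate 2 (adjusted p = 0.0514). C3, the central complement component, was at 2.96 and 1.4 at D7 and 12.9 and 18.6 at D13 (log2 change 2.44 ± 0.37, adjusted p = 0.000107) and at 94.3 to 227 at D19.

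**Figure D2:**
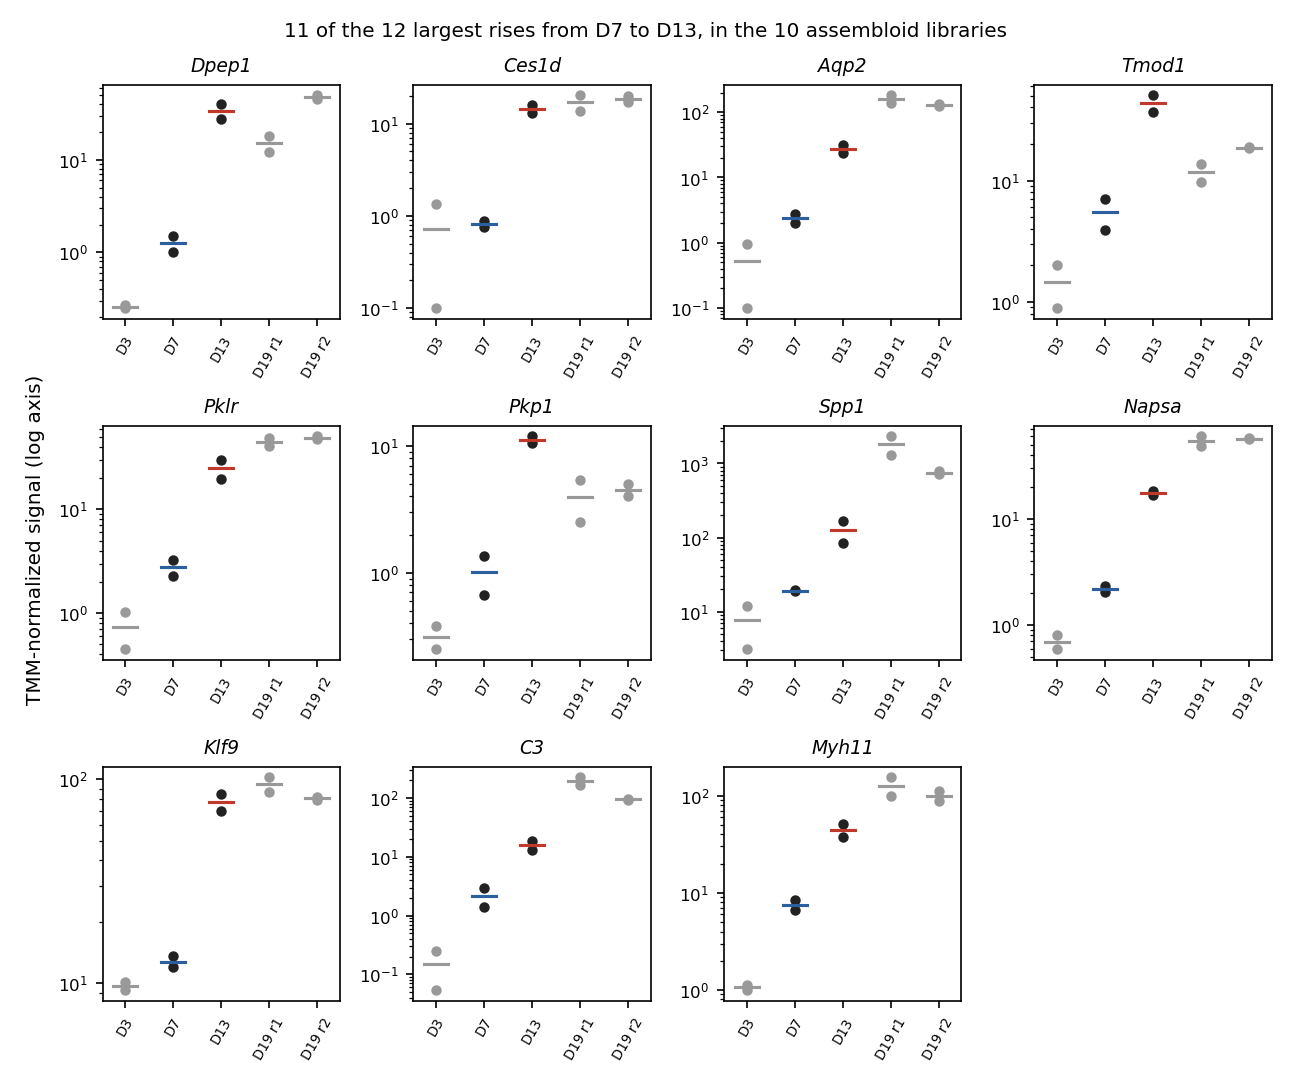
TMM-normalized signal (log axis) of 11 of the 12 largest rises in each of the 10 assembloid libraries at D3, D7, D13 and in both D19 sets, with points for libraries and bars for group means. In all 11 genes both D13 libraries lie above both D7 libraries, and Tmod1 and Pkp1 lie below their D13 values in all 4 D19 libraries.

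Of the 24 proximal tubule genes, 14 rose, none fell, and 10 were not called, beside 1.83% of all genes tested called higher. Their median log2 change was 1.17, and all 24 had a positive sign. Genes of glucose synthesis were among them: Fbp1, a fructose bisphosphatase, was at 1.02 and 0.351 at D7 and 6.04 and 10.2 at D13 (log2 change 2.45 ± 0.2, adjusted p = 3.14e-09). Pck1, the first committed enzyme of that pathway, was at 1.32 and 0.902 at D7 and 4.54 and 4.72 at D13 (log2 change 1.44 ± 0.19, adjusted p = 1.25e-05). Transporters followed. Slc13a3, a sodium-coupled dicarboxylate carrier, was at 1.37 and 0.451 at D7 and 5.83 and 8.74 at D13 (log2 change 2.16 ± 0.25, adjusted p = 1.34e-06). Slc34a1, the main phosphate carrier of the brush border, was at 3.05 and 2.21 at D7 and 9.57 and 6.49 at D13 (log2 change 1.31 ± 0.26, adjusted p = 0.00129). Slc22a6, an organic anion carrier of the basal side, was at 1.99 and 0.351 at D7 and 6.47 and 4.25 at D13 (log2 change 1.66 ± 0.27, adjusted p = 0.000158). Mep1a, a metalloprotease of the brush border, was at 7.86 and 3.36 at D7 and 21 and 29.3 at D13 (log2 change 2.06 ± 0.3, adjusted p = 0.000105). Kap, an androgen-regulated gene of mouse proximal tubule, was at 1 step in both D7 libraries and at 2.46 and 3.54 at D13, at least 21.2-fold higher against a floor of 3 steps per library. Further risers, of which the values were seen before they were named, were Slc22a12, Amn, Pdzk1, Ggt1, Slc27a2 and Slc3a1, with log2 changes of 1.01 to 1.58. Lrp2, the endocytic receptor megalin, was at 21.6 and 17.3 at D7 and 37.5 and 28.4 at D13 and was not called (log2 change 0.73, adjusted p = 0.0508).

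The proximal tubule genes also differed between the D7 replicates. D7 replicate 1 was above replicate 2 in 20 of the 24, and the summed signal of the list was 108.6 and 61.15 at D7 against 253.4 and 287.7 at D13. Both D13 libraries were above both D7 libraries in 22 of the 24. Without D7 replicate 1 the number called was 16, without D7 replicate 2 it was 10 and without D13 replicate 2 it was 10, while a pseudocount 5 times larger left 5. The summed signal was 25.99 and 31.67 at D3 and 1037 to 1177 at D19, against 5151 and 4820 in P0 kidneys. All 4 D19 libraries lay above both D13 libraries in 22 of the 24 genes.

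Sequences upstream of 2 carrier genes that rose, 1 for phosphate and 1 for organic anions, are shown because they hold the half-site GTTAAT of the HNF1 factors, regulators of proximal tubule genes, on either strand. They are the 250 bases before the RefSeq start, on GRCm38.p6 and not on the build of the expression table, with the half-site (GTTAAT, or its reverse complement ATTAAC) in capitals. The plus-strand window of Slc34a1 is chr13:55399398-55399647 and that of Slc22a6 is chr19:8617746-8617995, also on the plus strand.
Slc34a1: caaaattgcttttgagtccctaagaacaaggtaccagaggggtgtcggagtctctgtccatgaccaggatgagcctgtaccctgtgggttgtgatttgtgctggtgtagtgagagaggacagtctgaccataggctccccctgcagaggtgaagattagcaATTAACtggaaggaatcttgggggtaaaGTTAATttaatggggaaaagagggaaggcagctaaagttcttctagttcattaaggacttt
Slc22a6: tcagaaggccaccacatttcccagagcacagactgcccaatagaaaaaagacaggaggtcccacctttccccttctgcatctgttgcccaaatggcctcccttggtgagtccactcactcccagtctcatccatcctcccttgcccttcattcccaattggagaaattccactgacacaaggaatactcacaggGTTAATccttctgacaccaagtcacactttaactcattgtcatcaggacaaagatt
The search covered both strands and allowed no mismatch. The Slc34a1 window held 2 matches and that of Slc22a6 held 1. Of the 14 called proximal tubule genes 13 were in the RefSeq table, and 3 of these, the third being Pck1, had a match. Among the 10 genes not called, 8 were in the table and 2 had a match. In all, 6.43% of 32851 windows and 7.5% of 27025 genes held the half-site. These matches are letters in a window, and no binding was measured.

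Later segments moved in fewer genes. In the loop of Henle list 2 of 15 rose and none fell (median log2 change 0.18). Cldn10, a tight-junction claudin, was at 1.63 and 0.802 at D7 and 4.81 and 8.32 at D13 (log2 change 1.77 ± 0.23, adjusted p = 7.5e-06). Bsnd, the chloride channel subunit barttin, was at 0.221 and 0.20 at D7 and 1.39 and 1.42 at D13 (log2 change 1.01 ± 0.23, adjusted p = 0.00319). Umod, the defining product of the thick ascending limb, was at 1 step in 1 library of each day (0.0441 and 0.301 at D7 and 0.0535 and 0.886 at D13). In the distal and connecting tubule list 1 of 12 rose, S100g (median 0.09). With no fold threshold 5 of the 12 passed the adjusted p of 0.05, 2 of them lower at D13. The list sum was 471.5 and 471 at D7 and 377.8 and 388.6 at D13. Both D13 sums thus lay below both D7 sums. The calcium-binding S100g was at 0.75 and 1.35 at D7 and 2.99 and 3.72 at D13 (log2 change 1.11 ± 0.22, adjusted p = 0.000871). Aqp2 was the only principal cell gene of 12 that rose (median 0.26), and none of these 12 fell. With no fold threshold 2 of the 12 passed the adjusted p of 0.05, 1 of them lower at D13. Intercalated cell genes rose in 3 of 12 (median 0.68). Atp6v0d2, a subunit of the proton pump, was at 4.41 and 5.81 at D7 and 15.8 and 17.8 at D13 (log2 change 1.55 ± 0.27, adjusted p = 0.000331). Foxi1, the transcription factor that specifies intercalated cells, was at 0.839 and 0.601 at D7 and 3.42 and 3.25 at D13 (log2 change 1.36 ± 0.23, adjusted p = 0.00022). The pump subunit Atp6v1g3 was at 0.441 and 0.0501 at D7 and 2.3 and 1.89 at D13 (log2 change 1.36 ± 0.31, adjusted p = 0.00397). Foxi1 was also the only one of 16 tubule transcription factors called (median 0.14). Several of these lost their call when a single library was left out, Bsnd and S100g by falling under the fold threshold. The log2 change of Bsnd was 0.9999 without assembloid D7 replicate 2. That of S100g was 0.89 without assembloid D7 replicate 1 and 0.99 without assembloid D13 replicate 2. For Atp6v1g3 it was 1.12 without assembloid D7 replicate 2, also not called. At a pseudocount 5 times larger, Cldn10, Bsnd, S100g, Foxi1, Atp6v1g3 and Slc34a1 were not called.

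Most genes of the progenitor pools were not called. Six2 was at nearly the same level in all 4 libraries (log2 change -0.03 ± 0.25, adjusted p = 0.987), and the summed signal of 12 nephron progenitor genes was 1375 and 1413 at D7 and 1744 and 1710 at D13. Meox2, a homeobox gene of the cap mesenchyme, was the only member that fell, from 9.89 and 11.5 to 3.80 and 3.72 (log2 change -1.3 ± 0.28, adjusted p = 0.00203), and none rose (list median 0.21). Of 8 ureteric tip genes 0 were called in either direction in limma (median 0.00), and Wnt11 alone passed an adjusted p of 0.05 with no fold threshold. Ret, the GDNF receptor of the tip, was at 173 and 181 at D7 and 184 and 172 at D13, its co-receptor Gfra1 at 220.5 and 234 at D7 and 229.8 and 223 at D13, and the target genes Etv4 and Etv5 at 89 and 89.4 at D7 and 115 and 92.3 at D13 and at 134 and 141 at D7 and 141 and 137 at D13. All 4 D19 libraries lay below these for Ret (19.8 to 28.9) and for Six2 (45.7 to 76.7).

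Among 12 early nephron genes none rose and Osr2, a zinc-finger factor, fell (median -0.23). It was at 39.3 and 39.4 at D7 and 22.9 and 14.3 at D13 (log2 change -1.08 ± 0.31, adjusted p = 0.0281). Without single libraries its log2 change was -1.08 without assembloid D7 replicate 1 (adjusted p = 0.132), -1.07 without assembloid D7 replicate 2 (adjusted p = 0.135) and -0.76 without assembloid D13 replicate 2 (adjusted p = 0.319), in no case called. Podocyte genes had 1 of 16 called, Plce1, a phospholipase C of the slit diaphragm, which fell and was at 58.8 and 54.6 at D7 and 27 and 26.5 at D13 (log2 change -1.06 ± 0.16, adjusted p = 4.52e-05). The podocyte list median was 0.16, and 10 of the 16 genes had a positive sign. Past the adjusted p with no fold threshold were 6 of the 16, 2 of them lower at D13. Their summed signal was 1217 and 1174 at D7 and 1300 and 1324 at D13, so both D13 sums lay above both D7 sums. The ureteric trunk and collecting duct epithelium list had 1 of 12 called (median 0.04), the keratin Krt19, which fell and was at 63.7 and 80.5 at D7 and 19.5 and 36.5 at D13 (log2 change -1.39 ± 0.3, adjusted p = 0.00458). The change of Krt19 was -1.22 without assembloid D7 replicate 2 (adjusted p = 0.0675) and -0.95 without assembloid D13 replicate 1 (adjusted p = 0.0911). A pseudocount 5 times larger ended the calls of Meox2, Osr2 and Plce1.

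At the main pseudocount the largest fall among genes of the level rule was that of Sprr1a (ENSMUSG00000050359.8, chromosome 3, 92391259 to 92393202), a precursor of the cornified envelope of stratified epithelia. Its signal was 169 and 203 at D7 and 6.74 and 10.5 at D13 (log2 change -4.31 ± 0.37, adjusted p = 2.57e-07), following 331 and 424 at D3. Ctse (ENSMUSG00000004552.17, chromosome 1, 131566044 to 131603243), the aspartic protease cathepsin E of mucosal epithelia, was at 43.1 and 47.2 at D7 and 2.03 and 3.25 at D13 (log2 change -3.7 ± 0.24, adjusted p = 1.03e-10) after 66.6 and 87.2 at D3. All D19 libraries lay below the D13 values of both, at 0.447 to 3.6 and at 0.0561 to 0.403. Sprr2a3, Sprr2a2, Gsdmc2 and Gsdmc3, members of the small proline-rich and gasdermin families, fell by 2.88, 2.29, 3.02 and 3.08 on the log2 scale, but each has near-identical neighbours on its chromosome between which the counting could split reads, so the values of single members are uncertain. Of 7 stratified barrier epithelium genes tested 2 fell, Sprr1a and Sprr2f, and none rose (median -0.50, beside 0.841% of all genes called lower). Sprr2f was at 32 and 32.9 at D7 and 5.77 and 13.3 at D13 (log2 change -1.77 ± 0.26, adjusted p = 4.21e-05) and, unlike Sprr1a, at 14.1 to 32.3 at D19. The summed signal of the barrier list was 210.5 and 242.9 at D7 and 20.12 and 32.09 at D13.

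Urothelial genes moved both ways, with 2 of 9 lower and 2 higher (median 0.02). Upk3a and Upk1b, membrane plaque proteins of umbrella cells, fell. Upk3a was at 8.21 and 8.62 at D7 and 0.0535 and 0.177 at D13 (log2 change -3.12 ± 0.36, adjusted p = 2.35e-06). Upk1b was at 4.55 and 3.36 at D7 and 0.107 and 0.236 at D13 (log2 change -2.11 ± 0.38, adjusted p = 0.000579), while Upk1a, Upk2 and Upk3b were not called. Trp63, the factor of basal urothelial cells, rose and was at 5.16 and 4.71 at D7 and 19 and 16.8 at D13 (log2 change 1.68 ± 0.26, adjusted p = 7.65e-05). Krt20, a keratin of umbrella cells, also rose and was at 0.839 and 0.351 at D7 and 3.05 and 7.26 at D13 (log2 change 1.9 ± 0.35, adjusted p = 0.000495). The sums over the 9 genes were 25.12 and 25.86 at D7 and 27.32 and 33.36 at D13. At a pseudocount 5 times larger Upk1b and Krt20 were not called.

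Other large falls had no common list. Nrk, a serine-threonine kinase gene on the X chromosome, was at 47.7 and 44.2 at D7 and 4.17 and 6.61 at D13 (log2 change -2.91 ± 0.26, adjusted p = 1.56e-08). Sorcs1, a sorting receptor, was at 11.7 and 9.32 at D7 and 1.02 and 0.827 at D13 (log2 change -2.6 ± 0.24, adjusted p = 3.64e-08). Msln, which encodes mesothelin, was at 32.4 and 34.3 at D7 and 4.65 and 11.7 at D13 (log2 change -2.02 ± 0.33, adjusted p = 0.00014), and its D13 libraries differed. Igf2bp3, an RNA-binding protein of fetal tissues, was at 28.6 and 30.8 at D7 and 6.02 and 7.33 at D13 (log2 change -2.01 ± 0.18, adjusted p = 1.18e-08). Tbx3os1, a non-coding gene that overlaps Tbx3 on the opposite strand, was at 56.8 and 50.7 at D7 and 12.9 and 13.1 at D13 (log2 change -1.97 ± 0.22, adjusted p = 6.69e-07). No source used here gives the strand setting of the counting, so reads of Tbx3os1 and Tbx3 cannot be told apart, and Tbx3 itself had a log2 change of -1.01 ± 0.15 (adjusted p = 2.75e-05).

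In the renin, pericyte and smooth muscle list 7 of 10 genes had a positive sign and 3 a negative one, the lowest at -0.845 on the log2 scale. Past the adjusted p with no fold threshold were 6 of the 10, 1 of them lower at D13. With the fold threshold 4 of the 10 genes rose and none fell (median 0.53), beside 1.83% of all genes tested called higher. Beside Myh11 these were the actin-binding Cnn1, at 1.06 and 0.752 at D7 and 4.38 and 7.56 at D13 (log2 change 1.86 ± 0.37, adjusted p = 0.00149), the adhesion molecule Mcam, at 14.2 and 13.4 at D7 and 49.7 and 50.6 at D13 (log2 change 1.79 ± 0.23, adjusted p = 1.97e-05), and Tagln, at 19.6 and 16.4 at D7 and 38.6 and 49.7 at D13 (log2 change 1.24 ± 0.29, adjusted p = 0.00718). Acta2, smooth muscle actin, was at 53.5 and 54.5 at D7 and 93.1 and 118 at D13 and just under the fold threshold (log2 change 0.94 ± 0.23, adjusted p = 0.00944). The change of Tagln was 1.12 without assembloid D7 replicate 2 (adjusted p = 0.0848) and 1.07 without assembloid D13 replicate 2 (adjusted p = 0.102), neither called, and a pseudocount 5 times larger ended the call of Cnn1. The list sum was 372.6 and 366.5 at D7 and 408.6 and 476.4 at D13. Embryonic stroma had 1 of 12 genes higher and 1 lower (median -0.12). Penk, which encodes proenkephalin and marks medullary stroma, was at 58.9 and 57.6 at D7 and 112 and 167 at D13 (log2 change 1.22 ± 0.23, adjusted p = 0.000932). Tbx18, of ureteric mesenchyme, was at 19.2 and 14.1 at D7 and 4.54 and 6.37 at D13 (log2 change -1.46 ± 0.34, adjusted p = 0.0064). The change of Penk was 0.94 without assembloid D13 replicate 2 (adjusted p = 0.0362) and that of Tbx18 -1.25 without assembloid D7 replicate 1 (adjusted p = 0.0954) and -1.25 without assembloid D13 replicate 1 (adjusted p = 0.0803), none called.

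Fibrillar matrix genes rose in 2 of 13 and fell in none (median -0.08), and 8 of the 13 had a negative sign. Past the adjusted p with no fold threshold were 6 of the 13, 3 of them lower at D13. Their summed signal was 9095 and 8810 at D7 and 7662 and 9356 at D13, so the days overlapped. Tnc, the matricellular protein tenascin C, was at 41.4 and 43.1 at D7 and 95.7 and 97.6 at D13 (log2 change 1.18 ± 0.24, adjusted p = 0.00254). Lox, a collagen cross-linking oxidase, was at 98.1 and 83.7 at D7 and 153 and 223 at D13 (log2 change 1.02 ± 0.25, adjusted p = 0.0104). The change of Lox was 0.9 without assembloid D7 replicate 2 (adjusted p = 0.109) and 0.75 without assembloid D13 replicate 2 (adjusted p = 0.184), and a pseudocount 5 times larger also ended its call. Of 10 YAP and TGF-beta targets 1 rose (median 0.31): Ccn2, a secreted connective tissue factor, was at 7.99 and 6.65 at D7 and 28.4 and 26.2 at D13 (log2 change 1.77 ± 0.25, adjusted p = 3.85e-05) and at 77.5 to 103 at D19.

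Lists of other cell types had few calls. In the endothelium list 1 of 14 rose (median 0.09). Cdh5, the junction protein VE-cadherin, was at 4.11 and 4.31 at D7 and 8.61 and 11.4 at D13 (log2 change 1.07 ± 0.31, adjusted p = 0.0269), with list sums of 53.68 to 67.37 in the 4 libraries against 1160 and 1134 in P0 kidneys. The change of Cdh5 was 1.04 without assembloid D7 replicate 1 (adjusted p = 0.144), 1.1 without assembloid D7 replicate 2 (adjusted p = 0.118) and 0.89 without assembloid D13 replicate 2 (adjusted p = 0.235), none called. One of 13 macrophage and immune genes rose (median 0.09). Cd74, the invariant chain of class II antigen presentation, was at 8.7 and 6.92 at D7 and 22.5 and 27.3 at D13 (log2 change 1.56 ± 0.27, adjusted p = 0.000378). The list sum was 24.35 and 22.62 at D7 and 42.95 and 48.64 at D13. The leukocyte marker Ptprc was at 6.97 and 7.97 at D7 and 13.1 and 12.9 at D13 (log2 change 0.73 ± 0.22, adjusted p = 0.0298), but C1qa, a defining macrophage gene, was at or near 1 step in all 4. Erythroid genes had sums of 1.008 to 1.324, with Hba-a1 and Hba-a2 near 1 step, and 0 of 7 called in either direction in limma (0 at an adjusted p under 0.05 with no fold threshold).

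Neuronal genes had 1 of 12 called (median 0.04), the neurofilament Nefm, which fell and was at 10.2 and 9.88 at D7 and 1.92 and 3.54 at D13 (log2 change -1.61 ± 0.51, adjusted p = 0.0485). Its change was -1.59 without assembloid D7 replicate 1 (adjusted p = 0.196), -1.63 without assembloid D7 replicate 2 (adjusted p = 0.18), -1.29 without assembloid D13 replicate 1 (adjusted p = 0.268) and -1.93 without assembloid D13 replicate 2 (adjusted p = 0.0927), never called. The list sum ranged over 34.03 to 44.64. No gene was called in the lists of glia (0 of 8, median -0.03), skeletal muscle (0 of 6, median -0.01), cartilage (0 of 6, median 0.11) and adrenal cortex (0 of 3, median 0.31) in limma. With no fold threshold these had 0, 1, 1 and 0 genes. Those were Tnnt1, at 4.02 and 3.81 at D7 and 5.83 and 10.9 at D13 (log2 change 0.88 ± 0.25, adjusted p = 0.0214), and Col2a1, at 21.8 and 24.8 at D7 and 11 and 11.3 at D13 (log2 change -0.996, adjusted p = 0.00151). List sums at D7 and D13 ranged over 57.30 to 73.03 for glia, 4.900 to 11.99 for muscle, 70.40 to 84.36 for cartilage and 4.812 to 8.499 for adrenal cortex. The part of such cells in the results was not tested.

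Cell cycle genes had less summed signal at D13, each by less than the fold threshold. All 16 had a negative sign (median -0.54), 10 passed the adjusted p of 0.05, and 0 were called with the fold threshold. Mki67, a marker of dividing cells, was at 453 and 459 at D7 and 297 and 234 at D13 (log2 change -0.79 ± 0.13, adjusted p = 0.000113). Top2a, a topoisomerase of the dividing phase, was at 418 and 438 at D7 and 271 and 259.6 at D13 (log2 change -0.69 ± 0.1, adjusted p = 5.56e-05). The replication genes Pcna and Mcm2 were at 126 and 141 at D7 and 132 and 125 at D13 and at 145 and 154 at D7 and 149 and 122 at D13. The list sum was 1972 and 2058 at D7, 1485 and 1281 at D13, and 697.4 to 807.5 at D19. Sterol synthesis showed the same shape, with 13 of 14 negative (median -0.49), 11 past the adjusted p and 0 called. Hmgcs1, which starts the pathway, was at 701 and 712 at D7 and 484 and 478 at D13 (log2 change -0.55 ± 0.11, adjusted p = 0.00144). Sqle, a later oxidase, was at 293 and 286 at D7 and 195 and 185 at D13 (log2 change -0.61 ± 0.1, adjusted p = 0.000161).

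Energy genes gave few calls. None of 13 fatty acid oxidation genes was called (3 past the adjusted p with no fold threshold, median 0.24), and Cpt1a, which loads fatty acids for import into mitochondria, was at 98.7 and 101 at D7 and 129 and 136 at D13 (log2 change 0.4 ± 0.1, adjusted p = 0.0101). Of 14 nuclear oxidative phosphorylation genes 0 were called (1 past the adjusted p, median 0.16), and Cox4i1, a subunit of cytochrome oxidase, was at 213 and 222 at D7 and 291 and 301 at D13 (log2 change 0.44 ± 0.11, adjusted p = 0.00568). The 13 mitochondrially encoded genes were all positive in sign with 0 called (1 past the adjusted p, median 0.27). Hypoxia and glycolysis genes rose in 3 of 13 (median 0.33). Ndrg1, a stress-responsive gene, was at 32.5 and 29.8 at D7 and 98 and 111 at D13 (log2 change 1.71 ± 0.13, adjusted p = 1.21e-09). Adm, a vasodilator peptide, was at 2.96 and 1.95 at D7 and 6.15 and 11 at D13 (log2 change 1.45 ± 0.27, adjusted p = 0.000516). Pdk1, which restrains pyruvate oxidation, was at 22.7 and 26.5 at D7 and 46.9 and 58.7 at D13 (log2 change 1.07 ± 0.25, adjusted p = 0.00599). The change of Pdk1 was 0.96 without assembloid D7 replicate 1 (adjusted p = 0.0752) and 0.91 without assembloid D13 replicate 2 (adjusted p = 0.097), neither called, and a pseudocount 5 times larger ended the calls of Adm and Pdk1.

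Genes known to respond to glucocorticoids had 4 of 12 higher and 1 lower (median 0.77), beside 1.83% of all genes tested called higher and 0.841% lower. The summed signal of the list was 752.7 and 762 at D7 and 681.5 and 788.7 at D13, so the days overlapped. Beside Klf9, Zbtb16, a zinc-finger repressor, was at 1.19 and 0.652 at D7 and 9.51 and 8.15 at D13 (log2 change 2.39 ± 0.24, adjusted p = 1.15e-07). The clock gene Per1, which is also a cAMP target, was at 34.3 and 33.4 at D7 and 84.4 and 92.4 at D13 (log2 change 1.36 ± 0.15, adjusted p = 3.71e-07). Sgk1, a kinase that raises sodium uptake and was named after its value was seen, was at 12.9 and 14.4 at D7 and 30.2 and 35.9 at D13 (log2 change 1.21 ± 0.19, adjusted p = 0.00013). Cdkn1c, a cell cycle inhibitor, fell and was at 409 and 399 at D7 and 153 and 194 at D13 (log2 change -1.23 ± 0.12, adjusted p = 5.45e-08). Per1 was the only one of 10 cAMP responsive genes called (median 0.18). The media compositions are not given in the labels, so whether a steroid was added on these days was not tested.

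Injury-associated genes rose in 3 of 12 (median 0.41). Beside Spp1 and C3 this was Gdf15, a stress-induced cytokine, at 8.08 and 7.02 at D7 and 22.2 and 25.5 at D13 (log2 change 1.54 ± 0.21, adjusted p = 1.26e-05). Clu, another member, was high on both days (424 and 481 at D7 and 429.7 and 491 at D13, log2 change 0.02 ± 0.16, adjusted p = 0.979). Of 11 immediate early genes 1 rose (median 0.28), Egr1, at 27.9 and 27.3 at D7 and 94.3 and 45.5 at D13 (log2 change 1.22 ± 0.23, adjusted p = 0.00128). Its D13 libraries differed, and its change was 0.7 without assembloid D13 replicate 1 (adjusted p = 0.0353), not called. Among 10 interferon responsive genes Bst2 alone rose (median 0.21), from 5.65 and 5.91 to 9.78 and 18.2 (log2 change 1.09 ± 0.34, adjusted p = 0.0391). Its change was 1.06 without assembloid D7 replicate 1 (adjusted p = 0.182), 1.12 without assembloid D7 replicate 2 (adjusted p = 0.155) and 0.67 without assembloid D13 replicate 2 (adjusted p = 0.429), none called.

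Developmental signals gave few calls. In the retinoic acid pathway 2 of 12 rose (median 0.14), the synthesis enzyme Aldh1a1, at 55.5 and 53.4 at D7 and 183 and 164 at D13 (log2 change 1.65 ± 0.42, adjusted p = 0.0154), and the degrading enzyme Cyp26a1, at 6.75 and 6.97 at D7 and 16.9 and 13.4 at D13 (log2 change 1.03 ± 0.29, adjusted p = 0.0172). The change of Aldh1a1 was 1.68 without assembloid D7 replicate 1 (adjusted p = 0.082), 1.62 without assembloid D7 replicate 2 (adjusted p = 0.0953), 1.58 without assembloid D13 replicate 1 (adjusted p = 0.0867) and 1.73 without assembloid D13 replicate 2 (adjusted p = 0.0749), none called. That of Cyp26a1 was 1.01 without assembloid D7 replicate 1 (adjusted p = 0.108), 1.05 without assembloid D7 replicate 2 (adjusted p = 0.0924) and 0.88 without assembloid D13 replicate 1 (adjusted p = 0.147), none called. Wnt feedback targets had 1 of 10 higher (median 0.14), the transcription factor Sp5, at 5.43 and 9.97 at D7 and 21.4 and 19.2 at D13 (log2 change 1.34 ± 0.27, adjusted p = 0.00102), with a change of 0.96 without assembloid D7 replicate 1 (adjusted p = 0.0672), not called. FGF feedback targets (0 of 10, median 0.11), the Notch pathway (0 of 10, median -0.14) and the BMP pathway (0 of 12, median 0.22) had no gene called in limma, and 1, 0 and 1 gene past the adjusted p with no fold threshold. These were Spry1, an inhibitor of receptor tyrosine kinase signalling, at 126 and 124 at D7 and 201 and 176 at D13 (log2 change 0.59 ± 0.14, adjusted p = 0.00519), and the ligand Bmp7, at 142 and 154 at D7 and 192 and 193 at D13 (log2 change 0.38 ± 0.1, adjusted p = 0.0134). Notch2 was at 314 and 326 at D7 and 325 and 293 at D13 and Hes1, a Notch target, at 56.5 and 61.3 at D7 and 67.9 and 55.7 at D13. At an unadjusted p under 0.05 with no fold threshold, the lists without a call had 13 of 16 cell cycle, 11 of 14 sterol, 6 of 13 fatty acid oxidation, 4 of 14 nuclear oxidative phosphorylation and 5 of 13 mitochondrially encoded genes. On the same basis the FGF, Notch and BMP lists had 2, 3 and 3 genes, ureteric tip 2, skeletal muscle and cartilage 1 each, and erythroid, glia and adrenal cortex 0.

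**Figure D3:**
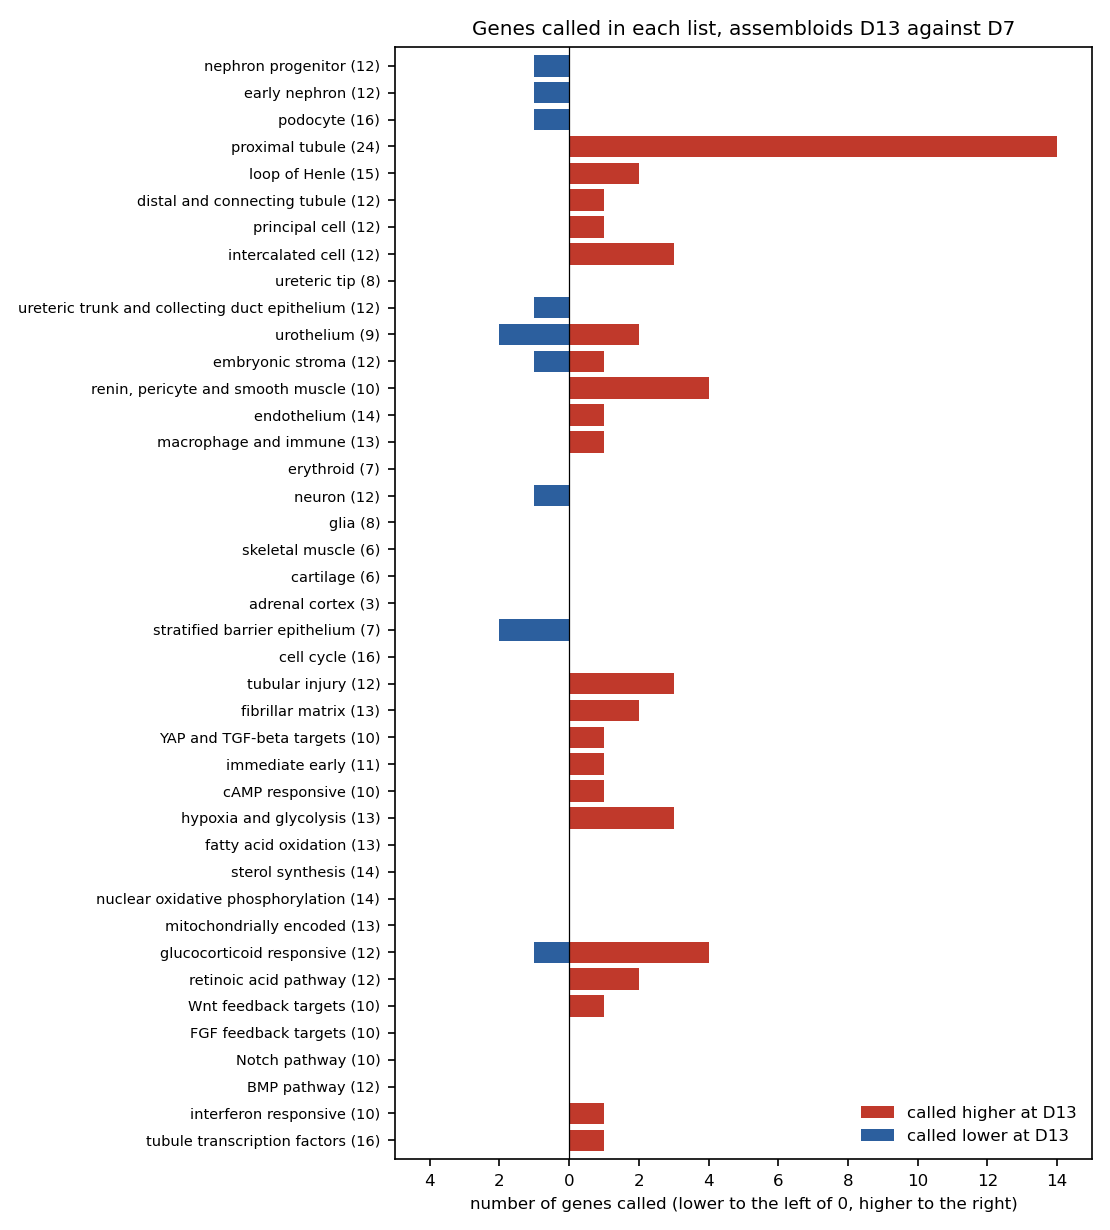
Number of genes called higher (red, right of 0) or lower (blue, left of 0) at D13 in each of 41 gene lists, with the number of genes tested in parentheses. The proximal tubule list stands out with 14 higher and 0 lower, followed by 4 higher in the lists of smooth muscle and of glucocorticoid responsive genes.

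The same days were sampled in v1 explants, which are whole cultured kidneys with the cells those kidneys still had. There 677 genes (3.51%) were called higher and 170 (0.882%) lower at D13. Of the 353 genes higher in assembloids, 169 (47.9%) were also higher in explants, which is 25% of the explant list. Of the 162 genes lower in assembloids, 23 (14.2%) were also lower in explants, 13.5% of that list, and 17 were higher there. The proximal tubule list had 12 of 24 genes higher and 0 lower in explants (median 0.97), and Aqp2 and Klf9 had log2 changes of 2.23 and 2.09 there, and neither gene had a called difference. Assembloid and explant libraries differ in culture type and in medium together, and the effects of these cannot be told apart. The explant libraries also differ in sex-linked genes. Xist was at 0.142 and 0.37 at D7 and 1315 and 0.319 at D13 and Ddx3y at 84.8 and 81 at D7 and 0.0476 and 76.3 at D13 in them, so that D13 replicate 1 stood apart from the other 3.

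**Figure D4:**
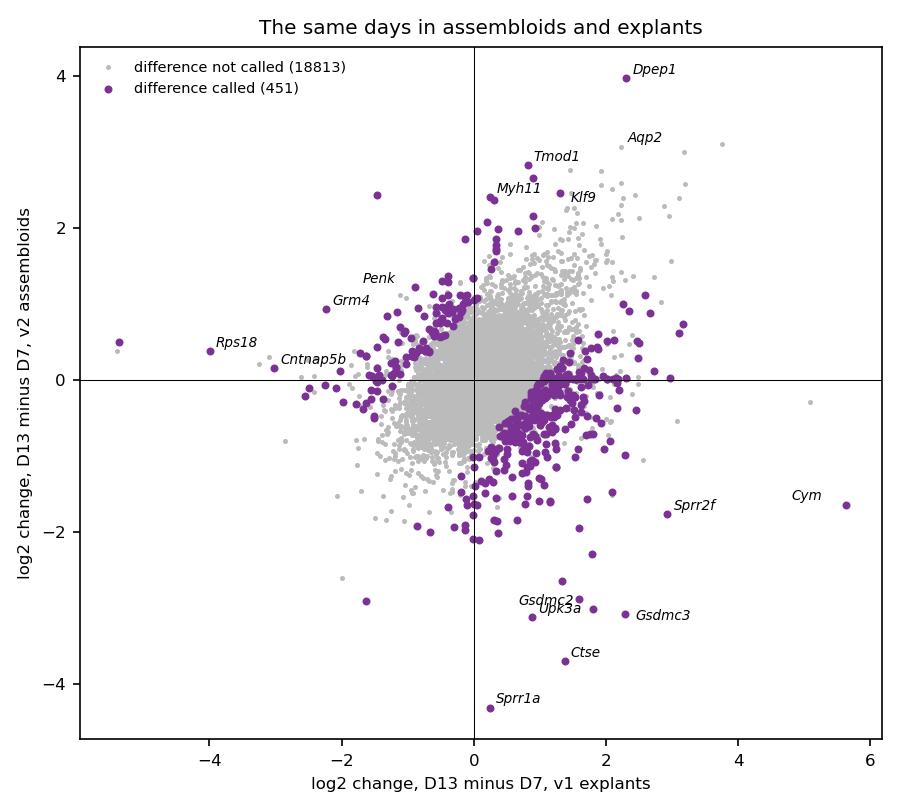
Log2 change from D7 to D13 in v2 assembloids (vertical axis) against that in v1 explants (horizontal axis), 1 point per gene tested. Purple points are the 451 genes whose changes differed, among them Sprr1a, Ctse and Upk3a, far below 0 on the vertical axis and above 0 on the horizontal, and Cym, far to the right.

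The difference of the changes, assembloid minus explant, was called in 451 genes, 132 (0.685%) positive and 319 (1.66%) negative. This count was lower in most of the fits that left out a single library, which leave a group with no replicate. Of the 162 genes that fell in assembloids 75 (46.3%) had a negative difference, and of the 353 that rose 36 (10.2%) a positive one. The assembloid change is itself a part of the difference, so genes picked by that change lean to the same sign. These 2 shares are therefore descriptive and cannot be set against the shares over all genes. A pseudocount 5 times larger gave 210 called differences.

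Several epithelial genes that fell in assembloids rose in explants or were not called there. Sprr1a was at 208 and 174 at D7 and 227 and 222 at D13 in explants (difference -4.55 ± 0.52, adjusted p = 3.24e-05), and Ctse at 52 and 41.4 at D7 and 135 and 109.6 at D13 (difference -5.07 ± 0.35, adjusted p = 2.62e-10). Sprr2f was at 17.8 and 9.67 at D7 and 90.7 and 125 at D13 (difference -4.7 ± 0.37, adjusted p = 3.25e-09) and Upk3a at 54 and 56 at D7 and 116 and 89.4 at D13 (difference -4.0 ± 0.5, adjusted p = 3.15e-05). For Gsdmc3 and Gsdmc2, with the doubt on paralogs given above, the differences were -5.36 and -4.83. The summed barrier list was 251.4 and 201.9 at D7 and 354.7 and 379.2 at D13 in explants. In assembloids the same sum was smaller at D13. The most negative difference was that of Cym, chymosin (-7.27 ± 1.03, adjusted p = 0.000448). It was at 0.236 and 0.317 at D7 and 243 and 14.4 at D13 in explants, so 1 library carried most of its mean. In assembloids it was at 2.83 and 1.7 at D7 and 0.0535 and 0.059 at D13, 1 step in both D13 libraries. That is at least 13.4-fold lower against a floor of 3 steps per library, but the change was not called (log2 change -1.64 ± 0.73, adjusted p = 0.179). With a fit on the 8 libraries of the 4 groups alone the difference of Cym was not called (adjusted p = 0.114).

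Positive differences were led by Rps18 (4.37 ± 0.27, adjusted p = 2.62e-10), a ribosomal protein gene whose explant signal was 171 and 198 at D7 and 8.83 and 12.7 at D13. Reads of Rps18 can be shared with processed copies, so this value is uncertain. Grm4, a glutamate receptor, was at 20.7 and 27.4 at D7 and 4.24 and 4.32 at D13 in explants (difference 3.18 ± 0.32, adjusted p = 3.01e-07) and at 2.52 and 3.66 at D7 and 6.57 and 6.85 at D13 in assembloids. Cntnap5b, a neuronal adhesion protein, was at 95.5 and 85.2 at D7 and 11.5 and 9.24 at D13 in explants (difference 3.18 ± 0.32, adjusted p = 3.01e-07) and under 1 in every assembloid library of both days. The carboxypeptidase Cpb1 was at 14.4 and 14.3 at D7 and 4.95 and 5.51 at D13 in explants (difference 2.14 ± 0.36, adjusted p = 0.000728). All 4 of these genes fell in explants and none was called in assembloids. Pcdh9, a protocadherin, had a difference of 2.13 ± 0.51, adjusted p = 0.0159, and this was 2.05 without assembloid D7 replicate 2 (adjusted p = 0.0777), 1.83 without assembloid D13 replicate 1 (adjusted p = 0.0857), 2.06 without explant D7 replicate 1 (adjusted p = 0.069) and 1.77 without explant D13 replicate 2 (adjusted p = 0.112), none called.

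Some contractile and stromal genes had positive differences. Myh11 was already at 106 and 139 at D7 and 155 and 134 at D13 in explants (difference 2.15 ± 0.43, adjusted p = 0.00697), above every assembloid library of these days, and Cnn1 was at 17 and 26.7 at D7 and 20.3 and 18.6 at D13 (difference 1.99 ± 0.52, adjusted p = 0.0344). Acta2 had a difference of 1.17 ± 0.32, adjusted p = 0.0484, so 3 of the 10 genes of that list were called positive. Ccn2 was at 12.9 and 9.1 at D7 and 12.2 and 15.8 at D13 (difference 1.44 ± 0.35, adjusted p = 0.0213) and Penk at 381 and 495 at D7 and 244 and 222 at D13 (difference 2.12 ± 0.32, adjusted p = 0.00049). Penk rose in assembloids, and in explants its change was -0.9, short of the fold threshold. Podocyte genes had 3 positive differences, Podxl, Clic5 and Col4a3, and 1 negative, Plce1. Podxl, a surface sialoprotein of podocytes, was at 53.8 and 41.4 at D7 and 59.1 and 80.1 at D13 in assembloids and at 435 and 342 at D7 and 138 and 164 at D13 in explants (difference 1.89 ± 0.45, adjusted p = 0.0233).

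Some early nephron, Notch and macrophage genes had negative differences. Wnt4, Lhx1, Jag1 and Sfrp2 were called among 12 early nephron genes. Lhx1, a factor of the renal vesicle, was at 29.7 and 42.5 at D7 and 35 and 17.7 at D13 in assembloids, where the D13 replicates differed, and at 9.55 and 7.13 at D7 and 27.6 and 37.7 at D13 in explants (difference -2.34 ± 0.61, adjusted p = 0.0396). Jag1, a Notch ligand, was at 93.8 and 96.7 at D7 and 81.1 and 55 at D13 in assembloids and at 43.4 and 40.3 at D7 and 77.6 and 89.5 at D13 in explants (difference -1.48 ± 0.26, adjusted p = 0.00156), and Nrarp, a Notch target, was called with it (difference -2.04 ± 0.5, adjusted p = 0.026). Of 13 macrophage and immune genes 5 were negative. C1qa was at 11.1 and 10.7 at D7 and 49.2 and 51.4 at D13 in explants (difference -2.1 ± 0.33, adjusted p = 0.000329) and near 1 step in assembloids, and 10 of the 13 rose in explants, where the list sum went from 169.8 and 154.8 to 470.9 and 488.8. The part of the immune cells of the explants in the other differences was not tested. Clu, one of the injury genes, was at 93.3 and 85.8 at D7 and 403 and 488 at D13 in explants (difference -2.27 ± 0.23, adjusted p = 9.91e-07), reaching at D13 the level that assembloids already had at D7.

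**Figure D5:**
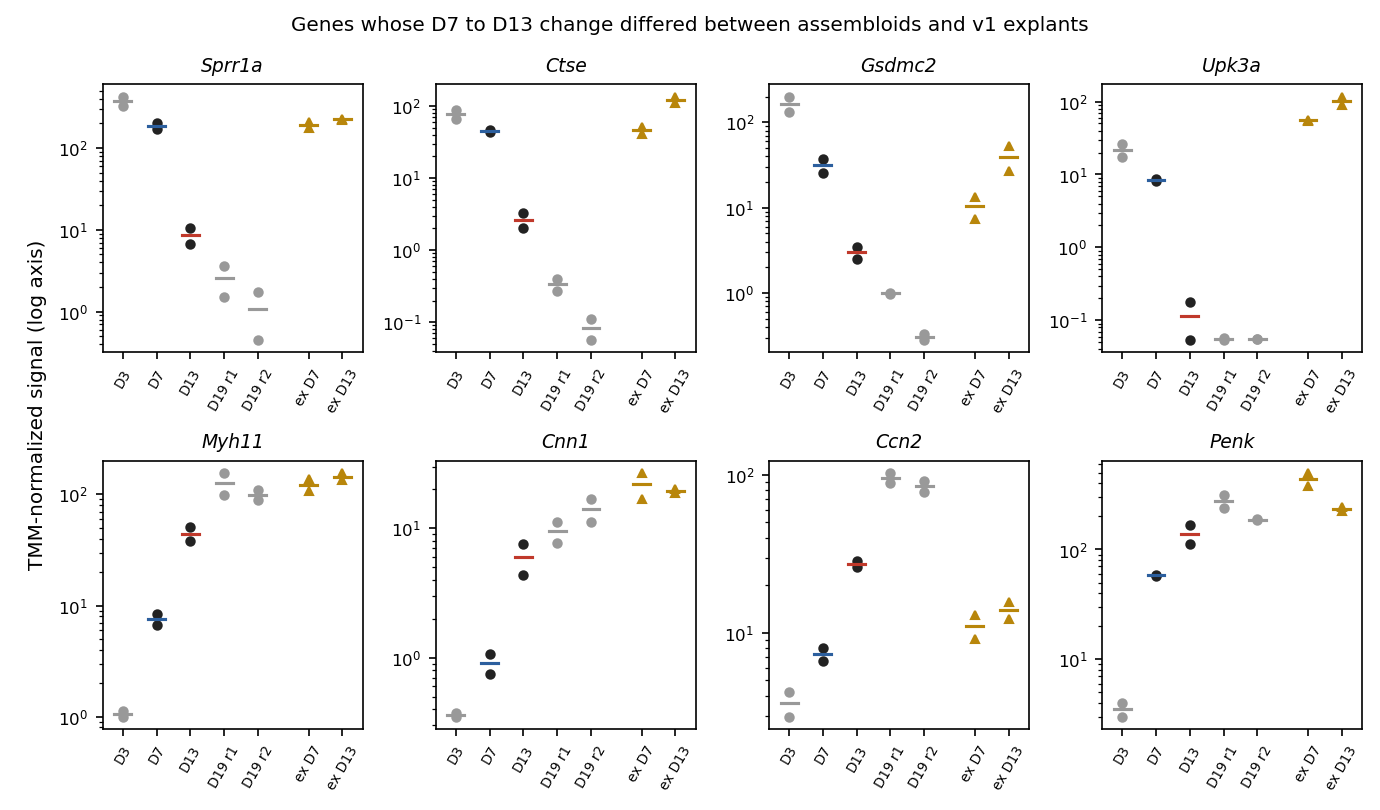
TMM-normalized signal (log axis) of 8 genes whose D7 to D13 change differed between the cultures, in the 10 assembloid libraries (circles) and the 4 v1 explant libraries (gold triangles, ex), with bars for group means. Sprr1a, Ctse, Gsdmc2 and Upk3a drop between D7 and D13 in assembloids and not in explants, and Myh11, Cnn1, Ccn2 and Penk climb in assembloids from below to nearer or past the explant level.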

How the data were processed

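RNA was prepared from 34 samples with column kits, per the labels' protocols. STAR 2.7.8a, Partek and the builds mm39 and mm10 are named in the submitters' processing notes. The deposited values are a TMM-normalized signal per gene, not counts, per the name of the deposited table. The scaling, offset, read counter and strand setting are not stated by any source used here. Gene coordinates were taken as mm39, since only 473 of 22685 nuclear genes share a start with an mm10 annotation.

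Reads could not be recovered, as only 88.92 to 94.54% of low values (up to 20 steps) lay within 0.1 step of a whole multiple of the lowest value, and count tests were left out. There were 0 columns of samples from elsewhere. The test scale was log2(value + 0.9621), with a pseudocount of 1 ppm of the median column total, and it understates changes of low genes. Genes at or above it in 2 samples were kept (19264 of 23331). The 17 group means were estimated jointly from the 34 samples in limma 3.58.1 (R 4.3.3; 17 residual degrees of freedom, median prior 9.927, trend and robust settings), with Benjamini-Hochberg adjustment over all genes. After leaving out 1 library of a pair, the remaining one was taken to vary as the rest of the groups do. Floors cover counting error only.

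The members, the 41 gene lists (458 of 472 genes tested) and the rules were chosen with earlier results of these data known. Named genes were the 12 largest changes in each direction and, for the difference, the 6 largest in each direction, if called and if the higher group mean reached 10 times the pseudocount, plus up to 4 members per list and 11 defining markers. Genes outside this rule given with values or called by name (such as Xist, Ddx3y, Tbx3, Umod, Acta2, C1qa, Clu, Pck1, Slc22a6, Kap, Lhx1, Podxl and Nrarp) were chosen after their values were seen. Results on some genes that met the rule are not reported here. The assembloid comparison was also run on simulated data with 200 of 19264 genes changed. The fit recovered 34% of 50 genes at 2-fold and 100% at 3-, 4- and 8-fold, and called 2 of 19064 unchanged genes. Changed genes were drawn from those with a D7 level of at least 10 times the pseudocount, so recovery of lower genes was not tested. The simulated noise was independent and normal with the fitted spread of each gene, as the model assumes.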

Additional observations from a re-analysis of the deposited data

Results flagged for a closer look

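Groups of 2 libraries are too small to test for an outlying library. The results given here differ between the cultures under the same contrast, by the test of the difference itself. In all, 451 genes had a D7 to D13 change that differed between assembloids and v1 explants, with culture type and medium changing together. All values that follow are log2 change in assembloids minus log2 change in explants.

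The negative differences of barrier and urothelial genes were -4.7 for Sprr2f, -4.55 for Sprr1a, -4.47 for Sprr2a3, -4.08 for Sprr2a2, -4.0 for Upk3a and -2.18 for Upk1b. Other secreted or epithelial products were at -7.27 for Cym, -5.36 for Gsdmc3, -5.07 for Ctse, -4.83 for Gsdmc2, -2.46 for Krt19 and -2.39 for Msln. Among regulators and other genes the differences were -2.76 for Nefm, -1.84 for Tbx3os1, -1.48 for Jag1, -1.35 for Igf2bp3, -1.35 for Plce1 and -1.29 for Nrk.

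Tubule genes with a positive difference were Dpep1 (1.66), Slc13a3 (1.26) and S100g (1.32). Contractile, cytoskeletal and stromal genes were at 2.15 for Myh11, 1.99 for Cnn1, 2.01 for Tmod1, 1.76 for Pkp1, 2.12 for Penk and 1.44 for Ccn2. The remaining positive differences were 4.37 for Rps18, 3.18 for Grm4, 3.18 for Cntnap5b, 2.14 for Cpb1, 2.13 for Pcdh9, 1.35 for Sp5 and 1.24 for Gdf15.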

How the results depend on the processing

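No result reversed its direction under the alternatives run. A pseudocount 5 times larger gave 170 called genes in assembloids (113 higher, 57 lower), 303 in explants and 210 for the difference, and no fold threshold gave 2057 (1165 higher, 892 lower), 2905 and 694. Leaving out single libraries gave 433 to 559 in assembloids (272 to 398 higher, 142 to 161 lower), 678 to 911 in explants and 240 to 454 for the difference. Under the other alternatives (a smaller pseudocount, both filters, quantile normalization, equal totals, other sets of libraries, no trend) the assembloid count was 464 to 695. The difference was not fitted on the 4 compared libraries. With the replicate number as a replicate block the counts were 516, 850 and 436. Deviations of same-numbered libraries correlated at -0.00643 in assembloids and 0.205 in explants. These values come from a single pair of libraries per day and cannot show whether the numbers pair the samples. No call of a named gene changed with the block. Leaving the low-depth D19 v2 explant library out of the fit, an alternative chosen after seeing the data, gave 516, 852 and 461.

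Of the named genes 19 lost their call at the larger pseudocount, Slc34a1, Cldn10 and Upk1b among them, and with the smaller pseudocount Tbx18 and Cyp26a1 did. Egr1 and Bst2 lost theirs on the 4 compared libraries, Nefm with no filter, Cdh5 and Cyp26a1 under quantile normalization and Bsnd with equal totals. The causes were not tested. With the smaller pseudocount the fall of Upk3a was larger than that of Sprr1a. The assembloid change of Cym was called with the smaller pseudocount and in the fits on the 4 or 10 assembloid libraries. Low genes are limited by the pseudocount. Of simulated 2-fold changes, which lie at the fold threshold itself, 34% were recovered. These were simulated only in genes with a D7 level of at least 10 times the pseudocount.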
